A study of Mus musculus with 24 samples.

Results

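This report concerns cultured mouse granulosa cells that received an siRNA named siNTS and 12 h of human chorionic gonadotropin (hCG), set against cells that received a control siRNA named siNC and plain medium for the same time. Its members are the 4 siNTS_hCG_12h libraries and the 4 siNC_Ctrl_12h libraries, chosen by their column names, which makes 8 of the 24 libraries of the series. The other groups, with 4 libraries each, are siNC with hCG at 12 h and the same 3 treatments at 4 h. The cells came from C57BL/6 mice aged 23 days, 48 h after an injection of PMSG, a gonadotropin that stimulates follicle growth; cells of 2 mice were pooled, transfected for 3 h and then cultured with or without hCG. The siRNA against Nts and hCG both differ between the 2 sides, and no library had siNTS without hCG, so in this comparison the part of the siRNA and the part of hCG cannot be told apart. The comparison of siNTS with siNC when both had hCG tests the siRNA directly, and it is given beside the results. Each library carries 1 of 4 replicate labels (A_1, A_2, B_2 and B_3), and the titles give every label a date that is shared across groups; A_2 and B_2 share their date, and the labels do not say whether their cells were separate pools, so p-values may in part measure technical spread. Values per library are given below in the order A_1, A_2, B_2, B_3.

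Granulosa cells line the ovarian follicle and nourish the oocyte. The surge of luteinizing hormone, which hCG mimics by binding the same receptor, raises cAMP in these cells, ends their follicular programme, opens the way to ovulation and starts their conversion into progesterone-producing luteal cells. Early targets include the EGF-like growth factors amphiregulin and epiregulin, and later ones include the cholesterol uptake and side-chain cleavage machinery. Nts encodes neurotensin, a secreted peptide best known from the brain and gut, which signals through the receptors Ntsr1, Ntsr2 and the sorting receptor Sort1, and which granulosa cells produce around ovulation.

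The 8 libraries held between 32.6 M and 40.7 M estimated counts (M, mega), and the 24 libraries between 26.2 M and 45.4 M. Levels are given in CPM (counts scaled to a common library size, with TMM factors), which are not corrected for gene length, so they are compared within a gene only. Ribosomal protein genes, 86 in number, took 4.39%, 5.33%, 8.06% and 4.95% of the counts in the control libraries and 9.99%, 4.37%, 5.86% and 6.39% in the siNTS libraries; siNC with hCG A_1 stood at 9.15%. Label A_1 was the highest library of its group in both 12 h groups with hCG and in each group at 4 h. Among the 12 h controls it was the lowest, so between the groups compared here the label did not mark a shared level. Over 10050 genes, the deviation of the siNTS A_1 library from its group mean had a correlation of 0.894 with that of control B_2. With that of siNC with hCG A_1 the correlation was 0.965. Both values only describe these libraries. A further fit left out the library of highest ribosomal share in each 12 h group (control B_2, siNC with hCG A_1 and siNTS A_1). These are called the 3 libraries of highest ribosomal share below. Counts without them are given where they move a result by more than 1.5-fold. All 4 h libraries were kept, among them control A_1 at 12.3% and siNTS with hCG A_1 at 9.84%.

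A control library went against its siRNA label. At 4 h, 3 genes differed between siNTS and siNC with hCG in the edgeR fit with replicate labels as a block, each lower with siNTS: Vps37a, a subunit of the endosomal sorting complex (log2 fold change -0.93, adjusted p = 0.000544), Capn10, a calcium-dependent protease (log2 fold change -1.13, adjusted p = 0.0191), and Dnajc16, a heat shock protein partner (log2 fold change -0.72, adjusted p = 0.0191). At 12 h, all 3 put the library labelled siNC_Ctrl_12h A_1 nearer to the siNTS mean, and 0 of 3 did so for each of the other 3 controls and each of the 4 siNC libraries with hCG. Capn10 stood at 14.2, 32.6, 30.1 and 29.7 CPM in the controls, at 13.2, 15.8, 13.9 and 11.2 CPM with siNTS and hCG, and at 39.6, 31.4, 32.7 and 34.7 CPM with siNC and hCG. The first control value therefore lay within the siNTS range and below all 7 other siNC libraries. Rbm18, an RNA-binding protein gene that was higher with siNTS, showed the same split, with 39.5, 22.4, 22.9 and 22.8 CPM in the controls against 40.1, 43.5, 42.9 and 38.2 CPM with siNTS. Cyp11a1, a gene that was far higher with hCG, stood at 231 CPM in the library labelled siNC_Ctrl_12h A_1 and at 280 to 317 CPM in the other controls. The cause was not tested. The library is kept under its label, and values without it are given where they change a call or move a count by more than 1.5-fold.

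**Figure D1:**
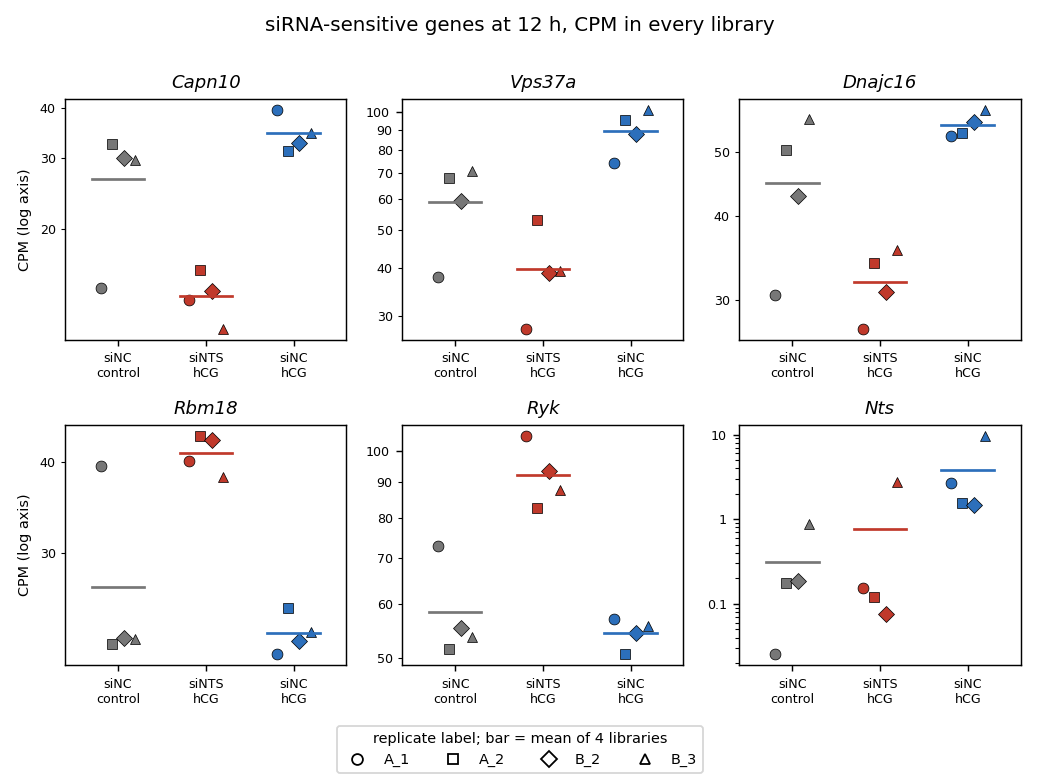
Each point is 1 library at 12 h (vertical axis, CPM, log axis; symbols mark the replicate label, bars the mean of 4 libraries) for 5 siRNA-sensitive genes and Nts. The control library labelled A_1 stands apart from the other controls, on the side of the siNTS libraries, for Capn10 (14.2 CPM), Vps37a, Dnajc16, Rbm18 (39.5 CPM) and Ryk.

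Nts itself was low at this time. The control libraries held 0.0254, 0.174, 0.185 and 0.871 CPM and the siNTS libraries 0.154, 0.121, 0.0764 and 2.73 CPM, so the groups overlapped and 1 library, B_3, carried most of the siNTS signal. With siNC and hCG the libraries held 2.69, 1.56, 1.49 and 9.67 CPM, each above the siNTS library of the same label. Against the control, the change with siNTS and hCG was 1.27 ± 1.39 (log2, SE; adjusted p = 0.545, edgeR). Against siNC with hCG, Nts was 2.34 lower on the log2 scale, with a 95% interval of -4.74 to 0.06 and an adjusted p of 1; with replicate labels as a block it was -2.76 with an adjusted p of 0.0219. In the authors' deposited tables the log2 difference of Nts between siNTS and siNC with hCG was -3.1 (adjusted p = 4e-05). For siNC with hCG against the control their value was 3.53 (adjusted p = 8.25e-06). At 4 h the group means were 5.68 CPM in the control, 61.9 CPM with siNC and hCG and 13.3 CPM with siNTS and hCG.

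Of the genes of the neurotensin system, a list that covers receptors and peptidases that make or degrade the peptide, 11 of 14 were tested. Of these, 3 rose and 2 fell against the control, beside 9.90% higher and 9.80% lower over all genes tested. Pcsk5, a proprotein convertase, stood at 33.9, 39.7, 35.2 and 47.1 CPM in the controls and at 97.5, 168, 126 and 147 CPM with siNTS and hCG (log2 fold change 1.79, adjusted p = 0.000311). Furin, another convertase, rose by 0.36 on the log2 scale (adjusted p = 0.0123). Pcsk2, a convertase of neuropeptide precursors, fell by 1.97 (adjusted p = 2.78e-06), and Mme, the membrane peptidase neprilysin, which cleaves neurotensin, fell by 1.12 (adjusted p = 0.0141). For these 4 genes the values with siNC and hCG were 1.65, 0.41, -2.43 and -1.0 against the same 4 control libraries. Leaving out label A_2 or label B_2 left 1 gene of the list higher and 1 lower, and in both fits the calls of Furin and Mme were lost; that of Mme was also lost without label B_3 and without the 3 libraries of highest ribosomal share. The calls over all genes fell in these fits too. They numbered 1525 higher and 1510 lower in the main fit, 794 and 773 without label A_2, and 889 and 990 without B_2. Ntsr1 and Ntsr2 did not pass the filter on low counts.

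Across the 15405 genes tested, 1525 (9.90%) were higher and 1510 (9.80%) lower with siNTS and hCG than in the control at 12 h (edgeR quasi-likelihood test, Benjamini-Hochberg adjusted p under 0.05). Of these, 638 rose and 637 fell by at least 2-fold. In 1627 genes every siNTS library stood above every control library and in 1585 below. With replicate labels as a block, 2463 genes (16.0%) were higher and 2561 (16.6%) lower. Without the library labelled siNC_Ctrl_12h A_1 the counts were 1234 (8.01%) and 1227 (7.96%); without the 3 libraries of highest ribosomal share, 1071 (6.95%) and 1118 (7.26%); without label B_3, 1096 (7.11%) and 1032 (6.70%). Leaving out label A_1 gave 1442 and 1308 genes, A_2 794 and 773, and B_2 889 and 990. The counts of a list in such fits or under the block are to be read beside these totals, which moved for all genes too. For siNC with hCG against the same 4 control libraries, 1260 genes (8.18%) were higher and 1288 (8.36%) lower; because both comparisons share their controls, their values are given side by side and no overlap is drawn from them.

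The 10 genes with the largest rises among those with at least 5 CPM on the higher side were Adcyap1, Ramp3, Cxcr4, Apela, Ereg, Asgr1, Edn2, Slc16a11, Areg and Slc7a8. Several are peptides or their receptors. Adcyap1, which encodes the peptide PACAP, stood at 0.0508, 0, 0 and 0.105 CPM in the controls and at 7.20, 14.5, 4.61 and 12.4 CPM with siNTS and hCG. Its control level was at a few counts per library, so its fitted log2 fold change of 7.81 ± 0.55 (adjusted p = 2.15e-09) depends on the prior count. Pthlh, which encodes parathyroid hormone-related protein, had a similar profile, with controls at 0 to 0.0791 CPM and siNTS libraries at 3.23 to 5.99 CPM (fitted log2 fold change 7.08, adjusted p = 2.19e-09). With siNC and hCG the group means were 8.29 CPM for Adcyap1 and 3.42 CPM for Pthlh, with fitted changes of 7.59 and 6.84.

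Cxcr4, the receptor of the chemokine CXCL12, rose from 0.660, 0.574, 0.524 and 1.08 CPM in the controls to 54.5, 58.4, 41.9 and 41.8 CPM with siNTS and hCG. The groups were far apart in every label, and the log2 fold change was 6.10 ± 0.32 (adjusted p = 5.36e-11). Ramp3, which modifies the receptors for adrenomedullin and calcitonin gene-related peptide, stood at 0.0499 to 0.152 CPM in the controls and 4.59 to 8.99 CPM with siNTS and hCG (6.23 ± 0.62, adjusted p = 2.67e-07). Apela, a ligand of the apelin receptor, stood at 0 to 0.237 CPM and at 4.85 to 7.06 CPM (5.72 ± 0.53, adjusted p = 9.68e-08). Apln, which encodes apelin itself, rose from 8.02, 9.45, 7.49 and 9.07 CPM to 73.2, 132, 96.1 and 128 CPM (3.66 ± 0.25, adjusted p = 1.61e-09).

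The EGF-like growth factors were among the largest rises. Ereg, epiregulin, stood at 0.584, 0.599, 0.247 and 1.95 CPM in the controls and at 34.7, 51.2, 39.5 and 51.5 CPM with siNTS and hCG (log2 fold change 5.69 ± 0.63, adjusted p = 1.04e-06). Areg, amphiregulin, stood at 0.304, 0.474, 0.154 and 1.13 CPM and at 11.5, 14.3, 12.2 and 19.5 CPM (4.78 ± 0.69, adjusted p = 2.77e-05). For both genes, control B_3 was the highest control and still lay below every siNTS library. Edn2, endothelin 2, a constrictor of the follicle wall at ovulation in mice, had unequal siNTS libraries, at 4.00, 9.68, 3.46 and 21.7 CPM against 0.123 to 0.422 CPM in the controls (5.49 ± 0.65, adjusted p = 2.83e-06).

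Membrane transport and uptake accounted for another 3 of the 10. Slc7a8, a transporter of neutral amino acids, rose from 16.0, 11.6, 12.6 and 25.1 CPM to 222, 404, 270 and 409 CPM (log2 fold change 4.32 ± 0.29, adjusted p = 1.16e-09). Slc16a11, a monocarboxylate transporter of the same family as the lactate carriers, rose from 0.0748 to 0.422 CPM to 7.05 to 9.23 CPM (4.95 ± 0.41, adjusted p = 2.52e-08). Asgr1, a subunit of the asialoglycoprotein receptor known from liver, rose from 0.299 to 1.37 CPM to 35.8 to 72.2 CPM (5.64 ± 0.39, adjusted p = 1.83e-09). In the siNC libraries with hCG the log2 fold changes of Cxcr4, Ereg, Areg, Edn2, Slc7a8 and Asgr1 against the same controls were 6.14, 5.50, 4.45, 4.66, 4.04 and 5.45.

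**Figure D2:**
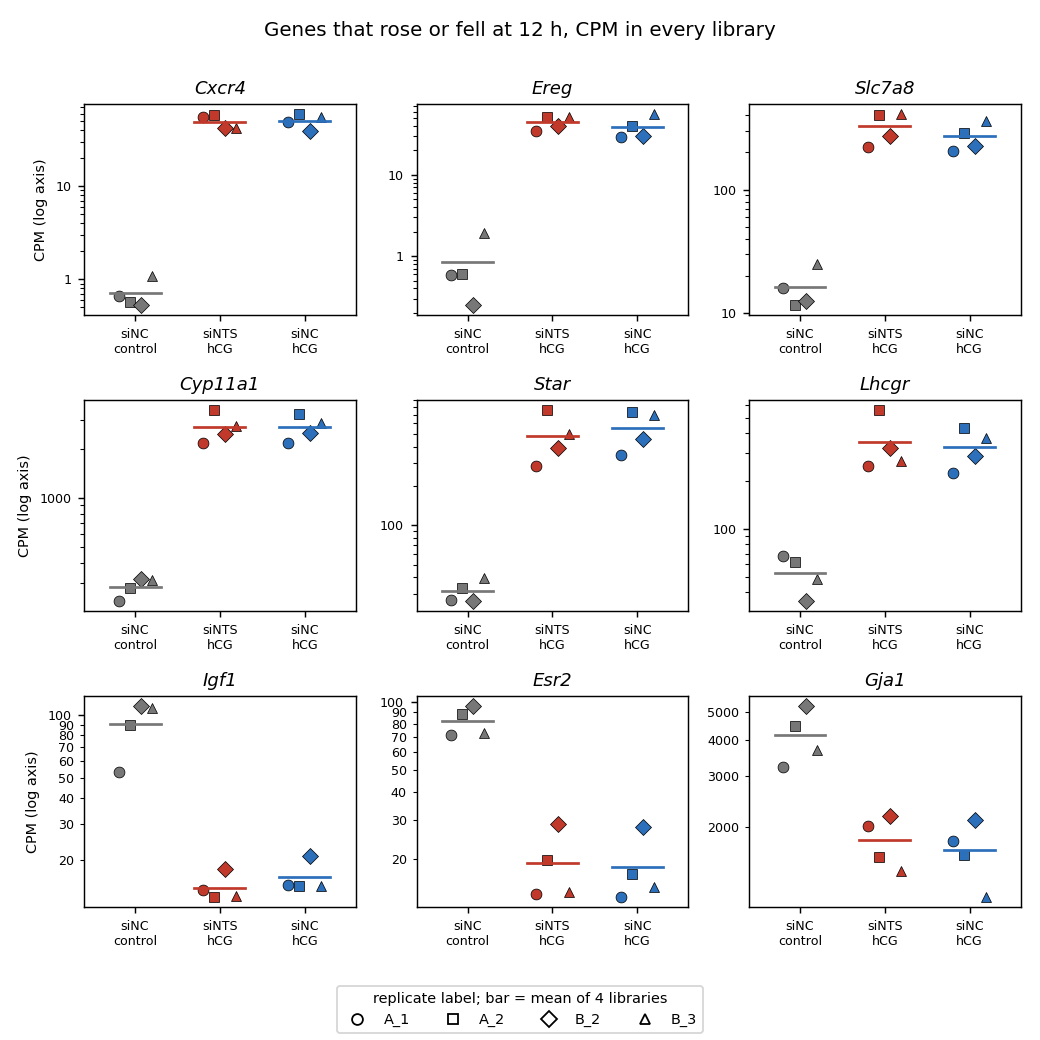
CPM (log axis) of 9 genes in every 12 h library by group; symbols mark the replicate label and bars the mean of 4 libraries. In each panel all 4 siNTS libraries with hCG lie on 1 side of all 4 controls: above for Cxcr4, Ereg, Slc7a8, Cyp11a1, Star and Lhcgr, below for Igf1, Esr2 and Gja1.

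The list of secreted ovulatory peptides and growth factors had 22 genes, all tested, of which 14 rose and 3 fell (14 and 5 under the block). Its median log2 fold change was 2.04, beside -0.000977 over all genes tested. Wnt4, a signal of the luteinizing granulosa cell, rose from 30.0 to 43.5 CPM to 149, 256, 200 and 136 CPM (2.46 ± 0.18, adjusted p = 6.20e-09). Wnt5a did not pass the test (0.06, adjusted p = 0.866). Inhba, which encodes the activin subunit beta A, stood at 313 to 429 CPM in the controls and at 106, 189, 225 and 240 CPM with siNTS and hCG; its change of -0.98 had an adjusted p of 0.0987, and of 0.00721 with replicate labels as a block.

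Under the same rule as for the rises, the 10 largest falls were Slc24a4, Ackr3, Neb, Npr3, Ctnna2, Frzb, Kcnk2, Atoh8, Scn3a and Igf1. Igf1, the growth factor of the growing follicle, stood at 53.2, 90.1, 111 and 109 CPM in the controls and at 14.3, 13.2, 18.1 and 13.4 CPM with siNTS and hCG (log2 fold change -2.62 ± 0.22, adjusted p = 2.67e-08). The lowest control still lay far above the highest siNTS library. Npr3, a clearance receptor for natriuretic peptides, fell from 18.4, 31.1, 21.4 and 39.1 CPM to 1.85, 5.22, 3.54 and 3.92 CPM (-2.92 ± 0.45, adjusted p = 5.87e-05). Ackr3, a receptor that removes the chemokine CXCL12, fell from 11.2, 20.4, 35.5 and 16.6 CPM to 2.92, 1.75, 2.6 and 2.17 CPM (-3.15 ± 0.35, adjusted p = 9.65e-07).

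The other falls covered ion transport, adhesion and a Wnt inhibitor. Slc24a4, a sodium, potassium and calcium exchanger, fell from 9.54, 14.2, 12.1 and 15.5 CPM to 0.708, 1.38, 1.83 and 0.451 CPM (log2 fold change -3.53 ± 0.33, adjusted p = 1.08e-07). Frzb, a secreted Wnt antagonist, fell from 6.84 to 10.1 CPM to 0.893 to 1.73 CPM (-2.72, adjusted p = 8.33e-06). Atoh8, a transcription factor of the basic helix-loop-helix family, fell from 17.3 to 31.2 CPM to 1.97 to 6.80 CPM (-2.68, adjusted p = 3.08e-06). Neb (nebulin), Ctnna2 (an alpha catenin), Kcnk2 (a potassium channel) and Scn3a (a sodium channel) fell by 2.99, 2.81, 2.69 and 2.68 on the log2 scale, and no siNTS library reached the lowest control for any of them. With siNC and hCG the changes of Igf1, Npr3, Ackr3, Slc24a4 and Neb against the same controls were -2.45, -2.96, -3.45, -4.04 and -2.71.

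Among 25 genes of the preovulatory granulosa cell, all tested, 11 fell and 1 rose, with a median log2 fold change of -0.42; under the block 15 fell and 3 rose. Esr2, the main oestrogen receptor of granulosa cells, stood at 71.2, 88.5, 95.9 and 73.0 CPM in the controls and at 14.0, 19.8, 28.7 and 14.4 CPM with siNTS and hCG (-2.09 ± 0.23, adjusted p = 7.61e-07). Gja1, which encodes the gap junction protein connexin 43 that couples granulosa cells, fell from 3238, 4477, 5258 and 3704 CPM to 2010, 1575, 2181 and 1411 CPM (-1.22 ± 0.20, adjusted p = 0.000112). Ihh, a hedgehog ligand that signals to theca cells, fell by 2.53 (adjusted p = 1.61e-06), and Bmpr1b, a receptor of bone morphogenetic proteins, by 1.48 (adjusted p = 3.98e-06).

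Not all follicular genes fell. Inha, the inhibin alpha subunit, stood at 700 to 1014 CPM and 760 to 970 CPM (log2 fold change 0.01, adjusted p = 0.976). Kitl, kit ligand, stood at 783 to 904 CPM in the controls and at 499, 741, 741 and 488 CPM with siNTS and hCG (-0.46, adjusted p = 0.131, and 0.0327 with replicate labels as a block). Fshr, the receptor of follicle-stimulating hormone, was the member that rose (0.48, adjusted p = 0.0463), and its call was lost without the library labelled siNC_Ctrl_12h A_1 and in each fit that left out label A_1, A_2 or B_2 or the 3 libraries of highest ribosomal share. Cyp19a1, the aromatase that makes oestradiol, was low in all 8 libraries, at 1.32 to 2.14 CPM in the controls and 3.10 to 6.97 CPM with siNTS and hCG (1.28, adjusted p = 0.0906, and 0.0205 with replicate labels as a block). Without the 3 libraries of highest ribosomal share, 0 genes of the list rose and 8 fell. In bulk libraries such as these, fewer cells of a type and less RNA per cell cannot be told apart.

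Steroid synthesis rose together: 16 of 25 genes tested were higher and 2 lower, with a median log2 fold change of 0.62. Star, the protein that carries cholesterol to the inner mitochondrial membrane, stood at 26.7, 32.9, 26.1 and 39.4 CPM in the controls and at 282, 761, 387 and 496 CPM with siNTS and hCG (3.94 ± 0.44, adjusted p = 1.25e-06). Cyp11a1, the side-chain cleavage enzyme that makes pregnenolone, rose from 231, 280, 317 and 312 CPM to 2170, 3459, 2464 and 2772 CPM (3.25 ± 0.27, adjusted p = 2.91e-08). Fdx1, ferredoxin, which hands it electrons, rose from 216, 224, 334 and 318 CPM to 2109, 1505, 1377 and 2029 CPM (2.69 ± 0.27, adjusted p = 2.99e-07).

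Cholesterol supply rose with them. Scarb1, the receptor that takes up cholesterol from high-density lipoprotein, stood at 200 to 209 CPM in the controls and at 748, 1354, 992 and 926 CPM with siNTS and hCG (log2 fold change 2.30 ± 0.21, adjusted p = 7.22e-08). Soat1, which esterifies cholesterol for storage, rose by 1.31 ± 0.13 (adjusted p = 3.68e-07). Hsd3b1, which makes progesterone, was high in both groups at 4302 to 5786 CPM and 3452 to 5128 CPM and did not pass the test (-0.13, adjusted p = 0.661). Akr1c14, a 3-alpha-hydroxysteroid dehydrogenase, fell by 1.01 (adjusted p = 0.00755, and 0.113 without label A_2). Hsd17b1, which completes oestradiol synthesis in granulosa cells, fell by 1.00 (adjusted p = 0.0114), a call that was lost without label A_2, without label B_2 and without the 3 libraries of highest ribosomal share.

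Enzymes that inactivate or reduce steroids also changed. Sult1e1, the oestrogen sulfotransferase, rose from 0.178 to 1.11 CPM to 3.08 to 10.1 CPM (log2 fold change 3.61 ± 0.56, adjusted p = 6.31e-05). Akr1c18, the 20-alpha-hydroxysteroid dehydrogenase that removes progesterone in the rodent ovary, rose from 2.49 to 5.05 CPM to 8.20 to 14.5 CPM (1.57 ± 0.30, adjusted p = 0.000539). Against siNC with hCG, siNTS differed by -0.21 for Star (95% interval -1.02 to 0.61), by 0.00 for Cyp11a1 (-0.52 to 0.52), by 0.23 for Fdx1 (-0.29 to 0.76) and by 0.13 for Scarb1 (-0.28 to 0.54). In edgeR 0 of the 25 genes passed that direct test (1 higher and 0 lower at an unadjusted p under 0.05), which does not show that the groups were alike.

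Genes of the luteal cell had 9 of 14 tested higher and 1 lower, with a median log2 fold change of 1.89. The list shares members with others, so its count is not separate from theirs. Star, Cyp11a1 and Scarb1 are also steroid synthesis genes here. Ptgfr is also in the prostaglandin list, Timp1 in that of proteases, and Lhcgr and Prlr in that of receptors. Ptgfr, the prostaglandin F receptor through which luteal regression is triggered, stood at 6.52, 8.50, 6.91 and 6.49 CPM in the controls and at 92.8, 121, 99.3 and 78.9 CPM with siNTS and hCG (3.79 ± 0.29, adjusted p = 7.67e-09). Lhcgr, the receptor that binds hCG, rose from 67.1, 61.6, 34.9 and 48.1 CPM to 248, 561, 324 and 268 CPM (2.73 ± 0.43, adjusted p = 8.28e-05). Sfrp4, a secreted Wnt modulator, rose from 46.7 to 73.0 CPM to 596, 1103, 579 and 575 CPM (3.55 ± 0.31, adjusted p = 5.49e-08). Prlr, the prolactin receptor, stood at 420, 301, 187 and 297 CPM and at 347, 999, 694 and 561 CPM, so the groups overlapped (1.11, adjusted p = 0.0578, and 0.0233 with replicate labels as a block).

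Cholesterol synthesis moved as a block of small rises. Of 25 genes, all tested, 21 rose and 0 fell, with a median log2 fold change of 0.82. Ggps1, Tm7sf2 and Ebp were among the 4 that did not pass. Dhcr7, the last reductase of the pathway, stood at 94.6, 110, 125 and 96.8 CPM in the controls and at 368, 393, 292 and 362 CPM with siNTS and hCG (1.73 ± 0.17, adjusted p = 2.96e-07). Cyp51, lanosterol demethylase, rose from 219 to 262 CPM to 515, 600, 462 and 417 CPM (1.03 ± 0.12, adjusted p = 3.23e-06), and Sc5d, sterol desaturase, from 106 to 119 CPM to 195, 239, 178 and 180 CPM (0.82 ± 0.11, adjusted p = 1.99e-05).

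Earlier steps rose as well. Hmgcs1, a synthase of the mevalonate pathway, stood at 577, 499, 414 and 409 CPM and at 674, 1225, 822 and 777 CPM (0.88 ± 0.19, adjusted p = 0.00168). Idi1, Sqle and the regulator Srebf2 rose by 1.07, 0.83 and 0.33 (adjusted p = 0.000881, 3.43e-05 and 0.0139). The call of Srebf2 was lost without label A_2, without label B_2 and without the 3 libraries of highest ribosomal share. The number that rose was 17 without the library labelled siNC_Ctrl_12h A_1 and 9 without label A_2. In the siNC libraries with hCG, 21 of the 25 were higher than the same controls and 0 lower, with a median of 0.84, and in the direct test of siNTS against siNC with hCG 0 of the 25 passed in edgeR, with a median of -0.0496 (0 higher and 0 lower at an unadjusted p under 0.05).

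**Figure D3:**
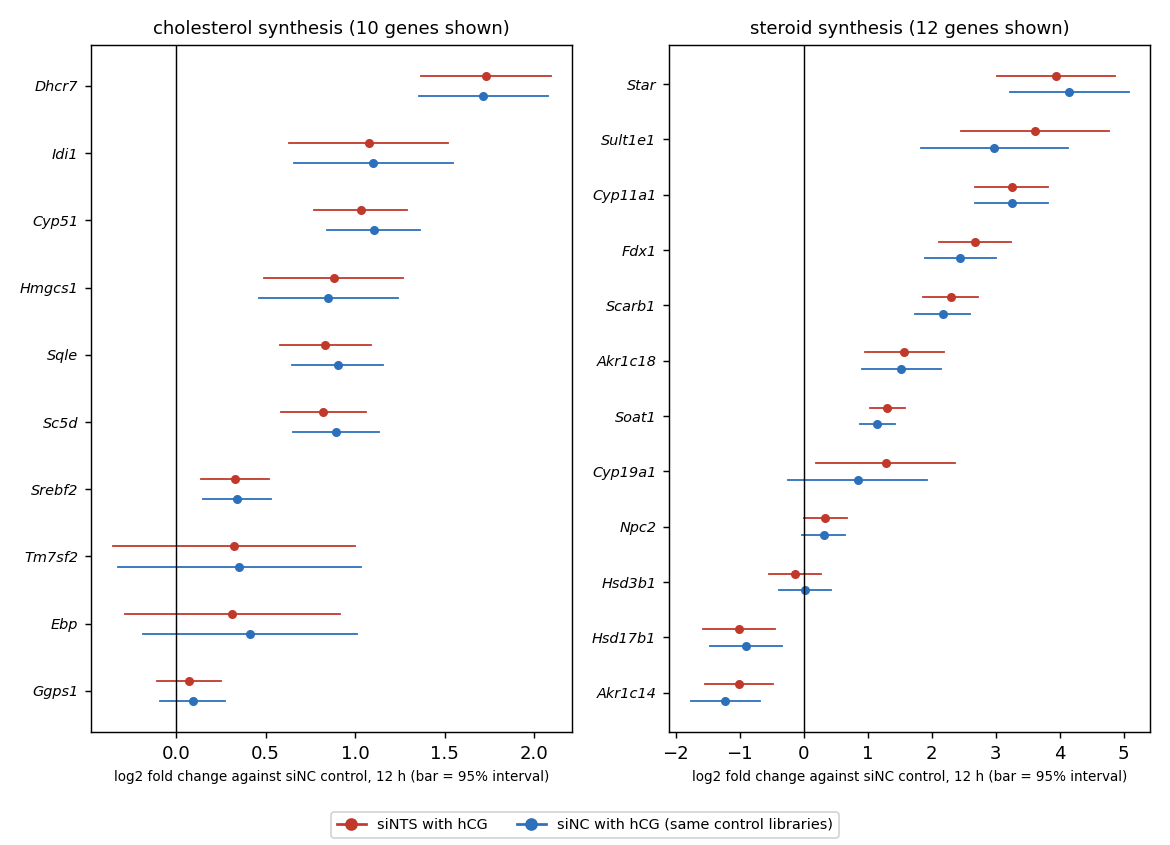
Log2 fold change against the siNC control at 12 h (horizontal axis, bars are 95% intervals) of 10 genes of cholesterol synthesis and 12 of steroid synthesis that are named with values, for siNTS with hCG and for siNC with hCG, which share their 4 control libraries. With siNTS and hCG the cholesterol genes lie between 0.07 (Ggps1) and 1.73 (Dhcr7), and the steroid genes between -1.01 (Akr1c14) and 3.94 (Star).

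Promoters of 4 cholesterol genes and 2 steroid genes are shown because these lists moved together; genes of the first list are known targets of SREBP2, which often binds beside the CCAAT box factor NF-Y. Each runs from 250 bases before to 50 bases after an annotated start, 5′ to 3′ on the gene's strand (RefSeq, build GRCm38.p6), and capitals mark CCAAT in either orientation (CCAAT or ATTGG) and the sterol element TCACNCCAC. Hmgcs1 was chosen after its values and matches were seen. The regions are chr7:143822917-143823216 (plus strand) for Dhcr7, chr5:4104648-4104947 (minus) for Cyp51, chr9:42264251-42264550 (minus) for Sc5d, chr13:119690101-119690400 (plus) for Hmgcs1, chr9:57997774-57998073 (plus) for Cyp11a1 and chr9:51963553-51963852 (minus) for Fdx1.
Dhcr7: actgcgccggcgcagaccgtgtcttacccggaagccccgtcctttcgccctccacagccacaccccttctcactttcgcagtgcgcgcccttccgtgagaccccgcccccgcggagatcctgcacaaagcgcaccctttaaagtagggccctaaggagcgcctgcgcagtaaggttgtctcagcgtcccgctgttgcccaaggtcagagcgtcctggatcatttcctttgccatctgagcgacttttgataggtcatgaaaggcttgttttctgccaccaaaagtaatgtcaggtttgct
Cyp51: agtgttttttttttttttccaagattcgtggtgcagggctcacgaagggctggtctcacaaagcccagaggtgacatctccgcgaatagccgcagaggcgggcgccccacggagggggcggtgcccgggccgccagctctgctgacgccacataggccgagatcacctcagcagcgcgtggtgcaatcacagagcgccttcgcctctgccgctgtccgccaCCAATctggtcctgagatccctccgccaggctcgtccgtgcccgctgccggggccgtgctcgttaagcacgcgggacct
Sc5d: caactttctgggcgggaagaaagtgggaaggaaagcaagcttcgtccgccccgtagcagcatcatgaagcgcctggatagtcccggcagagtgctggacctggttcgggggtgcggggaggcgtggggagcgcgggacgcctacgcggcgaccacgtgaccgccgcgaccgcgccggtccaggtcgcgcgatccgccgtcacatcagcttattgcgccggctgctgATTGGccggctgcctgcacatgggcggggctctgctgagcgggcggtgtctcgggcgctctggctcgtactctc
Hmgcs1: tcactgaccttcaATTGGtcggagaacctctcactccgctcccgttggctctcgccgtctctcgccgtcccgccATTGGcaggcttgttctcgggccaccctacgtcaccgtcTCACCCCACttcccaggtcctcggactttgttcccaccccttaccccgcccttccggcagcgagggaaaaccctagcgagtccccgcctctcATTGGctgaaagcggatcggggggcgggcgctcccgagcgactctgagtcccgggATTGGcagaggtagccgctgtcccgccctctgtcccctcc
Cyp11a1: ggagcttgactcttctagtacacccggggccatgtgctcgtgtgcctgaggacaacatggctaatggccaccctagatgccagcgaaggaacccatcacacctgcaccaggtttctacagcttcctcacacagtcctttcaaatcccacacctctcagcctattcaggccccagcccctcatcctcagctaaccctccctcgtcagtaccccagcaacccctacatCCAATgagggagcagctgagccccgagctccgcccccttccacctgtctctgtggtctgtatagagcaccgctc
Fdx1: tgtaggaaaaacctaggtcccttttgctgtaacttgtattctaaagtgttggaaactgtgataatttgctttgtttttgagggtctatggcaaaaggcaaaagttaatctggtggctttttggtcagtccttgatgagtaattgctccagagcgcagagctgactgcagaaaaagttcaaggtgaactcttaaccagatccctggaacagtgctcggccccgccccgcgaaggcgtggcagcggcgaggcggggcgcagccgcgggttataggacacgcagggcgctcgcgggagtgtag

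Of the promoters drawn, Hmgcs1 held 4 CCAAT boxes and 1 sterol element, Cyp51, Sc5d and Cyp11a1 held 1 CCAAT box each, and Fdx1 and the first of 3 Dhcr7 starts held 0. Searched on both strands, CCAAT was present in 17 of 21 promoters of the cholesterol list (81% of those in the table), in 11 of 22 promoters of the steroid list (50%) and in 37.4% of all 32851 promoters. The sterol element TCACNCCAC was present in 1 of 21 promoters of the cholesterol list and in 1.24% of all promoters. TGACGT, which is contained in the cAMP response element, was present in 7 of 38 promoters of the cAMP list (18.4%), in 10.5% of the promoters of genes tested and in 7.51% of all, and AAGGTCA, a site type bound by NR5A receptors, in 1 of 22 promoters of the steroid list (4.55%) and in 4.72% of all. A match describes letters in a window of 300 bases, and the table held promoters for 18 of the 25 cholesterol genes and for 18 of the 26 steroid genes.

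Genes of prostaglandin synthesis and response moved in both directions: 5 of 18 tested rose and 3 fell, and without label A_2 3 rose and 3 fell. Ptgs1, cyclooxygenase 1, stood at 1.78, 1.3, 1.73 and 4.14 CPM in the controls and at 35.9, 36.6, 23.5 and 65.7 CPM with siNTS and hCG (log2 fold change 4.17 ± 0.42, adjusted p = 2.86e-07). Ptgs2, the inducible cyclooxygenase 2, stood at 2.18, 1.45, 1.88 and 9.65 CPM and at 10, 40.3, 18.9 and 37.6 CPM (2.81 ± 0.72, adjusted p = 0.00751). Its highest control, B_3, nearly met its lowest siNTS library, A_1, and its call was lost without label A_2 and without label B_2. Hpgd, which degrades prostaglandins, fell by 1.34 (adjusted p = 0.00100), and Ptger2, a receptor of prostaglandin E2, fell from 3.02 to 7.71 CPM to 0.338 to 1.57 CPM (-2.36, adjusted p = 0.000268).

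In the list of the cumulus matrix, the hyaluronan coat that forms around the oocyte, 4 of 12 tested genes rose and 1 fell; with replicate labels as a block 8 rose and 1 fell, and without label A_2 or B_2 only 2 rose. Tnfaip6, which links proteins to hyaluronan, stood at 1.73, 2.22, 2.81 and 5.62 CPM in the controls and at 21.4, 18.6, 15.2 and 29.4 CPM with siNTS and hCG (log2 fold change 2.77 ± 0.34, adjusted p = 3.90e-06). Cd44, a hyaluronan receptor, rose by 1.36 (adjusted p = 6.43e-06). Vcan, the proteoglycan versican, stood at 482, 324, 153 and 445 CPM and at 598, 1847, 939 and 1837 CPM (1.90 ± 0.51, adjusted p = 0.0106), a call that was lost without label A_2 and without label B_2.

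Among proteases and their inhibitors 8 of 23 rose and 2 fell, and without label A_2 5 rose and 0 fell. Timp1, a metalloproteinase inhibitor of the corpus luteum, rose from 29.7, 33.2, 49.2 and 45.1 CPM to 224, 173, 150 and 175 CPM (2.20 ± 0.20, adjusted p = 9.74e-08), and Mmp19, a metalloproteinase, from 6.81 to 9.62 CPM to 20.9 to 24.7 CPM (1.52, adjusted p = 1.55e-05). Adamts1, a protease needed for ovulation in mice, stood at 177, 131, 71.2 and 234 CPM and at 104, 316, 175 and 714 CPM and did not pass the test (1.10, adjusted p = 0.180). Its 2 groups overlapped, and in both B_3 was the highest library.

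Of 28 ovulatory transcription factors 10 rose and 1 fell; with replicate labels as a block 16 rose and 3 fell, and without label A_2 the count was 6 and 0. Runx2, which is needed for luteal gene expression in mice, stood at 55.5, 40.7, 33.8 and 60.2 CPM in the controls and at 210, 393, 261 and 324 CPM with siNTS and hCG (log2 fold change 2.64 ± 0.27, adjusted p = 2.99e-07). Runx1 rose by 1.26 and Cebpb, a mediator of luteinization, by 1.56 (adjusted p = 6.78e-06 and 8.27e-06). The nuclear receptors Nr5a1 and Nr5a2, which drive steroidogenic promoters, did not pass the test at 0.24 and 0.04 (adjusted p = 0.0589 and 0.891); for Nr5a1 the adjusted p was 0.0168 with replicate labels as a block.

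In the list of cAMP signalling and its feedback, 8 of 24 genes rose and 2 fell, and with replicate labels as a block 13 rose and 4 fell. The phosphodiesterases that degrade cAMP led it. Pde4d rose from 4.67, 2.77, 1.60 and 4.70 CPM to 32.7, 48.6, 35.5 and 40.1 CPM (log2 fold change 3.51 ± 0.32, adjusted p = 7.85e-08), and Pde4b from 0.673 to 2.32 CPM to 11.7 to 18.1 CPM (3.51 ± 0.34, adjusted p = 1.74e-07). Pde3b rose by 2.68 (adjusted p = 7.19e-08) and Creb3l1, a membrane-bound transcription factor, by 1.03 (adjusted p = 2.05e-05). Prkar1a, a regulatory subunit of protein kinase A, did not pass (0.43, adjusted p = 0.0575, and 0.0138 with replicate labels as a block).

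The list of ERK feedback genes had 2 of 18 higher and 2 lower, close to the shares of all genes (9.90% higher and 9.80% lower). It had 3 higher and 4 lower under the block (16.0% and 16.6% over all genes) and also without label B_3 (7.11% and 6.70%). Errfi1, a feedback inhibitor of the EGF receptor, stood at 26.1, 22.4, 25.1 and 41.4 CPM in the controls and at 114, 153, 93.8 and 168 CPM with siNTS and hCG (log2 fold change 2.20 ± 0.29, adjusted p = 8.11e-06). Etv5, an ETS transcription factor downstream of ERK, fell by 0.60 (adjusted p = 0.000302).

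Receptors for gonadotropins and peptides had 6 of 19 genes higher and 1 lower. Oxtr, the oxytocin receptor, rose from 44.1, 30.4, 26.3 and 22.7 CPM to 73.4, 106, 102 and 65.1 CPM (log2 fold change 1.49 ± 0.21, adjusted p = 1.86e-05). Ramp1, a partner of the calcitonin receptor-like receptor, rose from 1.47, 1.60, 3.98 and 1.77 CPM to 26.6, 17.1, 17.9 and 21.2 CPM (3.24 ± 0.49, adjusted p = 4.84e-05).

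**Figure D4:**
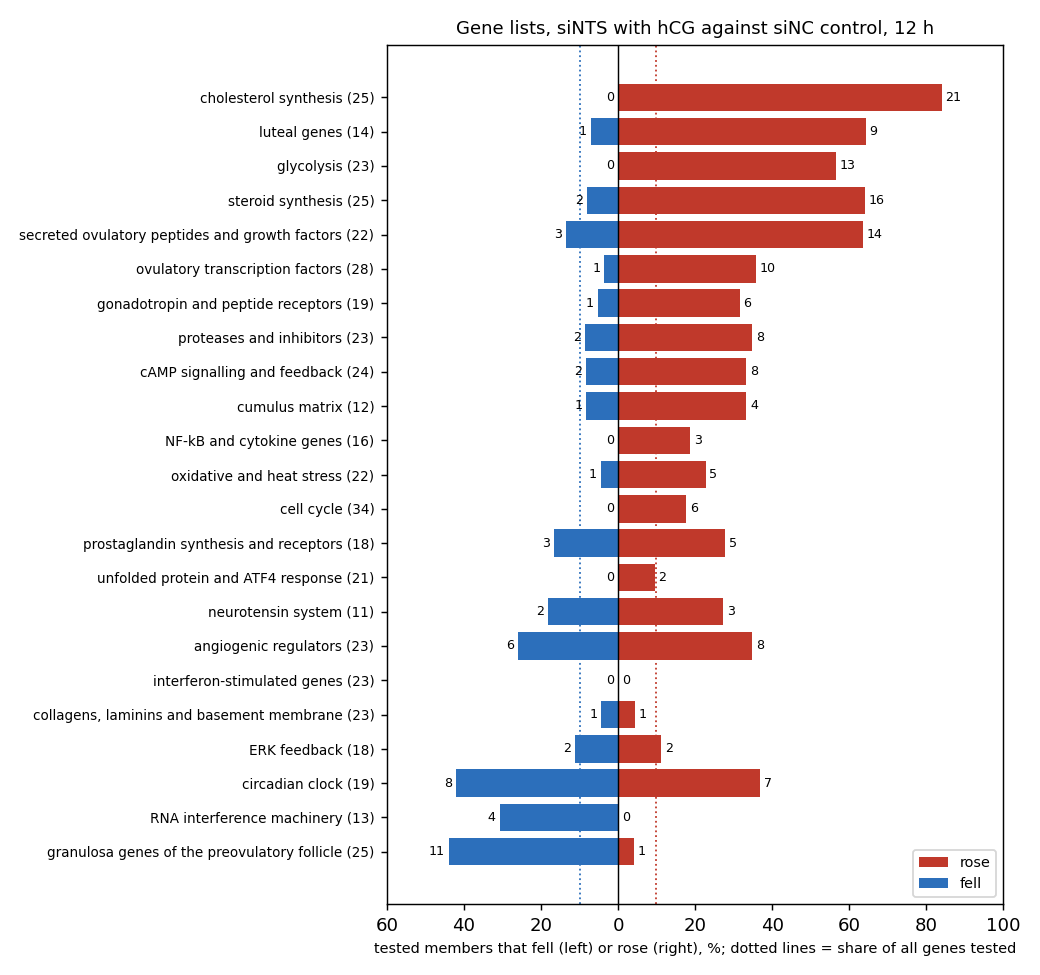
Share of the tested genes of each list (in brackets) that fell (left) or rose (right) with siNTS and hCG against the siNC control at 12 h, in percent; numbers are genes, and dotted lines mark the shares over all genes tested (9.80% fell, 9.90% rose). Cholesterol synthesis has 21 of 25 genes higher and 0 lower, and granulosa genes of the preovulatory follicle have 11 of 25 lower. Some genes belong to several lists.

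Angiogenic regulators divided, with 8 of 23 tested higher and 6 lower; without label A_2 or label B_2, 4 were higher and 4 or 5 lower. Angpt2, a ligand that destabilises vessels, fell from 184, 170, 81.1 and 161 CPM to 20.5, 31.6, 23.5 and 27.5 CPM (log2 fold change -2.53 ± 0.29, adjusted p = 2.07e-06). Thbs1, thrombospondin 1, an inhibitor of angiogenesis, fell from 1829, 1823, 1808 and 2114 CPM to 339, 469, 705 and 505 CPM (-1.91 ± 0.21, adjusted p = 7.79e-07). Vegfa, the main vascular growth factor, stood at 82.0, 41.8, 28.4 and 84.2 CPM and at 75.3, 152, 91.4 and 274 CPM (1.32 ± 0.39, adjusted p = 0.0191). Its groups overlapped: label A_1 was lower with siNTS and hCG, the other 3 labels higher, and the call was lost without label A_2, B_2 or B_3.

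Glycolysis had 13 of 23 genes higher and 0 lower, with a median log2 fold change of 0.66. The count fell in each fit that left out a label: 8 rose and 1 fell without A_1, 7 and 0 without A_2, 6 and 0 without B_2, and 6 and 1 without B_3. Over all genes the number higher was 1525 in the main fit and 1442, 794, 889 and 1096 in these fits, so it fell as well. Without the 3 libraries of highest ribosomal share 8 rose. Slc2a1, the main glucose transporter, stood at 32.8, 30.9, 34.9 and 85.4 CPM in the controls and at 82.5, 59.5, 61.9 and 408 CPM with siNTS and hCG (1.73 ± 0.47, adjusted p = 0.0121). Slc16a3, a lactate exporter, stood at 11.3, 8, 10.1 and 44.9 CPM and at 29.2, 12.7, 10.7 and 239 CPM and did not pass the test (1.97 ± 0.74, adjusted p = 0.0648, and 0.0322 with replicate labels as a block).

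The B_3 library of siNTS with hCG stood highest in both, and control B_3 was the highest control. The same library held 37.0 CPM of Adm, adrenomedullin, against 5.35 to 6.31 CPM in the other 3, and 388 CPM of Ddit4, an inhibitor of mTOR signalling, against 85.2 to 110 CPM. It also held 277 CPM of Ier3, an immediate early gene, against 45.2 to 55.1 CPM. Adm passed the test (log2 fold change 1.80, adjusted p = 0.0211) and lost its call in the fits without label A_1, A_2 or B_2 and in those without the library labelled siNC_Ctrl_12h A_1 or the 3 of highest ribosomal share. Ddit4 passed it (1.16, adjusted p = 0.0217) and lost its call without label A_1, without A_2, without the library labelled siNC_Ctrl_12h A_1 and without B_3, where the value was 0.51 (adjusted p = 0.121). Whether the culture of that library differed was not tested. Hk2, hexokinase 2, kept its call in every alternative run; it rose from 56.6, 46.1, 39.9 and 81.8 CPM to 142, 246, 193 and 344 CPM (2.04 ± 0.26, adjusted p = 4.98e-06). Ldha, lactate dehydrogenase A, was high in both A_1 and B_3 with siNTS and hCG (1216, 492, 636 and 1327 CPM) and its call (1.07, adjusted p = 0.0351) was lost in each fit that left out a label or the library labelled siNC_Ctrl_12h A_1. With siNC and hCG, 5 glycolysis genes were higher than the same controls, and in the direct test of siNTS against siNC with hCG 0 of 23 passed in edgeR (4 higher and 0 lower at an unadjusted p under 0.05); for Slc2a1 that difference was 1.22 (95% interval 0.25 to 2.19, adjusted p = 1).

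The circadian clock genes divided, with 7 of 19 higher and 8 lower, and 6 higher and 5 lower without label A_2. Arntl, which encodes the activator BMAL1, rose from 7.80 to 11.1 CPM to 19.4, 35.8, 26 and 23.7 CPM (log2 fold change 1.53 ± 0.17, adjusted p = 8.52e-07), and Npas2, a partner of BMAL1, from 0.339 to 0.634 CPM to 1.57 to 3.81 CPM (2.22, adjusted p = 5.65e-05). Bhlhe40, a repressor of the clock, rose by 2.19 and Rora by 1.94. Per3 fell by 1.82 (adjusted p = 0.000170), Nr1d2 by 0.97 (adjusted p = 2.83e-06) and Dbp, an output gene, by 1.20 (adjusted p = 0.00962; lost without label A_2 and without label B_2). Clock itself stood at 66.7 to 102 CPM and 56.3 to 117 CPM (-0.01, adjusted p = 0.989). Both groups had 12 h of culture.

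The remaining lists are given by their counts, beside 9.90% higher and 9.80% lower over all genes in the main fit and 16.0% and 16.6% under the block. The cell cycle list had 6 of 34 genes higher and 0 lower, with 9 and 4 under the block; 3 and 1 were left without the library labelled siNC_Ctrl_12h A_1, 2 and 0 without label A_2, and 3 and 0 without label B_2 or without the 3 libraries of highest ribosomal share. Rrm2, a subunit of ribonucleotide reductase, rose by 0.75 (adjusted p = 0.00225). Collagens, laminins and basement membrane had 1 of 23 higher and 1 lower, 2 and 4 under the block, and 3 and 1 without label A_1. Oxidative and heat stress had 5 of 22 higher and 1 lower, led by Slc7a11, a cystine transporter (2.18, adjusted p = 0.000160). The unfolded protein and ATF4 response had 2 of 21 higher, with 7 higher and 1 lower under the block, and 0 higher and 1 lower without the library labelled siNC_Ctrl_12h A_1. NF-kB and cytokine genes had 3 of 16 higher and 0 lower in edgeR (0 lower at an unadjusted p under 0.05), with 1 and 0 without label A_2 and 4 and 3 without label B_3.

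Of 23 interferon-stimulated genes, which double-stranded RNA can induce, 0 rose and 0 fell in edgeR, with a median log2 fold change of -0.11 (0 higher and 2 lower at an unadjusted p under 0.05). DESeq2 called 0 higher and 2 lower, limma-voom 0 and 0, and edgeR with the replicate block 0 and 3. Of 13 genes of the RNA interference machinery, 4 fell and 0 rose, and 2 fell without the library labelled siNC_Ctrl_12h A_1, without label A_1 or without label B_3. Ago1, an Argonaute protein, stood at 132, 128, 108 and 127 CPM in the controls and at 76.1, 95, 84.5 and 81.7 CPM with siNTS and hCG (-0.55 ± 0.11, adjusted p = 0.000916), and with siNC and hCG its change was -0.41. Ago4 fell by 0.87 (adjusted p = 8.70e-05) and by 0.86 with siNC and hCG. Ago3 and Tnrc6b fell by 0.70 and 0.62 (adjusted p = 0.0378 and 0.0351), and both calls were lost without the library labelled siNC_Ctrl_12h A_1, without label A_1 and without label B_3; that of Ago3 was also lost without label B_2. In the authors' deposited tables, Ago3 changed by 0.0787 with siNC and hCG against the control (adjusted p = 0.935). Between siNTS and siNC with hCG it differed there by -0.82 (adjusted p = 0.00428). For Tnrc6b these values were -0.357 (adjusted p = 0.306) and -0.269 (adjusted p = 0.512). Ago2, the Argonaute that cuts siRNA targets, did not pass the edgeR test (0.08, adjusted p = 0.750).

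The change with siNTS and hCG at 12 h was also compared with the same change at 4 h, as a difference of effects in 1 fit. The signed difference, 12 h minus 4 h, was positive for 427 genes (2.77%) and negative for 190 (1.23%); a negative value can mean a deeper fall at 12 h as well as a smaller rise. With replicate labels as a block the counts were 1363 and 782, and leaving out 1 label at a time gave 47 to 223 and 17 to 149. Among the named genes with a positive difference, some stood near the control at 4 h and others were already above it. Apln had group means of 2.89 CPM in the control and 3.49 CPM with siNTS and hCG at 4 h, and of 8.51 and 107 CPM at 12 h, a difference of effects of 3.39 (log2, adjusted p = 4.21e-06). Ptgfr went from 5.73 and 7.56 CPM to 7.11 and 98 CPM (3.38, adjusted p = 2.70e-05), and Lhcgr from 14.3 and 18.7 CPM to 52.9 and 350 CPM (2.35, adjusted p = 0.0249). Cxcr4, with 3.64 and 76 CPM at 4 h, stood at 0.71 and 49.1 CPM at 12 h (1.72, adjusted p = 0.0137). Cyp11a1, already higher at 4 h (180 and 483 CPM), reached 285 and 2716 CPM (1.83, adjusted p = 0.00523), and Dhcr7 went from 167 and 190 CPM to 107 and 354 CPM (1.54, adjusted p = 0.000741).

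The early peptides and Ramp3 followed the reverse course in their levels. Adcyap1 had a mean of 126 CPM with siNTS and hCG at 4 h and of 9.66 CPM at 12 h, Ereg 208 and 44.2 CPM, Areg 113 and 14.4 CPM, and Ramp3 61.7 and 6.74 CPM. Their controls were also lower at 12 h. The difference of the fold change between the times did not pass the edgeR test for these 4 (adjusted p = 0.358, 0.817, 0.630 and 0.642). The 12 h controls of Adcyap1 and Ramp3 were very low, so this does not show that the fold changes were alike. Neb and Npr3 belonged to the genes whose effect was lower at 12 h (-3.24 and -2.80, adjusted p = 0.0145 and 0.0104): at 4 h Neb stood at 2.34 CPM in the control and 2.81 CPM with siNTS and hCG, and at 12 h at 17.7 and 2.22 CPM.

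**Figure D5:**
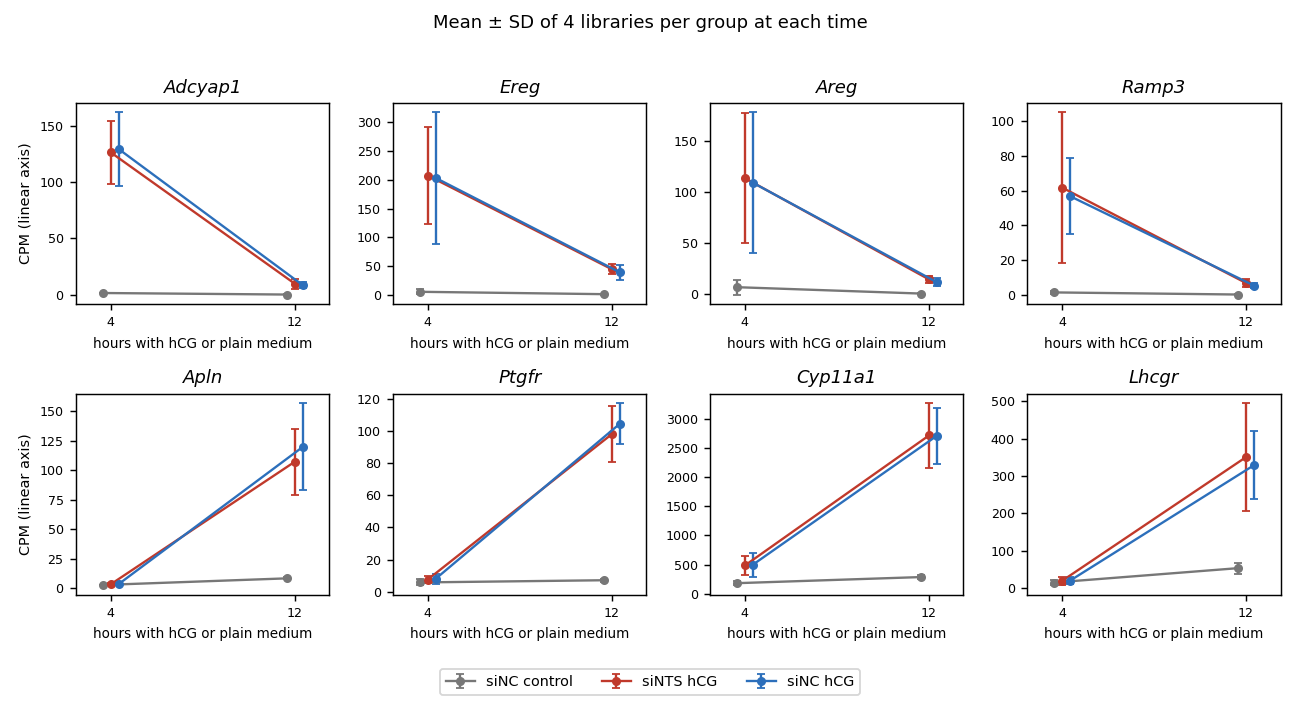
Mean CPM (linear axis, bars are the SD of 4 libraries) at 4 h and 12 h in the siNC control, siNTS with hCG and siNC with hCG for 4 genes that are high early and 4 that are high late. With siNTS and hCG, Adcyap1 falls from 126 to 9.66 CPM and Ereg from 208 to 44.2 CPM, while Apln climbs from 3.49 to 107 CPM and Lhcgr from 18.7 to 350 CPM.

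The direct comparison of siNTS with siNC, both with hCG at 12 h, had 7 genes higher (0.0454%) and 18 lower (0.117%) of 15405; with replicate labels as a block 28 (0.182%) were higher and 63 (0.409%) lower. Leaving out label A_2, B_2 or B_3 each gave 0 and 0 calls, with 422, 314 and 383 genes at an unadjusted p under 0.05, and the same was found without the 3 libraries of highest ribosomal share (0 and 0, with 436). These leave-out fits had no block. With only the groups compared and replicate labels as a block, 33 genes were higher and 96 lower. The authors' deposited table of this comparison has 122 genes higher and 209 lower at an adjusted p under 0.05. Some lists held calls of this comparison. In the main edgeR fit 1 gene of the cAMP list was lower. Under the block that list had 1 higher and 1 lower, and the neurotensin system had 2 lower. The block also gave 1 higher in ERK feedback, 1 lower among the receptors and 1 lower in the RNA interference machinery. Capn10 differed by -1.35 (95% interval -1.71 to -0.99, adjusted p = 0.00145), and its siNTS and siNC libraries with hCG did not overlap. Ryk, a Wnt receptor, stood at 105, 82.5, 93.6 and 87.8 CPM with siNTS against a mean of 54.5 CPM with siNC (0.76, 95% interval 0.53 to 0.99, adjusted p = 0.00491). Vps37a differed by -1.18 (adjusted p = 0.0162), Rbm18 by 0.83 (adjusted p = 0.0229) and Cpox, an enzyme of haem synthesis, by 0.69 (adjusted p = 0.0231).

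Further genes passed the direct test with the block and not in the main edgeR fit without it. Id2, an inhibitor of basic helix-loop-helix factors, stood at 108, 146, 108 and 135 CPM with siNTS and at a mean of 76.7 CPM with siNC (log2 difference 0.70, adjusted p = 0.0598, and 0.0219 with replicate labels as a block). H2bc4 (a histone gene), Srp14 (a signal recognition particle subunit), Slc25a40 (a mitochondrial carrier) and Tmem143 differed by 0.91, 0.80, 0.77 and 0.68. Their adjusted p was 0.00126, 0.0150, 0.00829 and 0.0150 under the block, and none passed in the main edgeR fit without it. In DESeq2 without a block, Id2 (adjusted p = 0.00229), Slc25a40 (0.0421) and Tmem143 (0.000442) passed. In edgeR without the library labelled siNC_Ctrl_12h A_1, Tmem143 passed (adjusted p = 0.0117). Sspn, sarcospan, a membrane protein of muscle and other cells, differed by -1.27 (adjusted p = 0.0678, and 0.00695 under the block). It also passed in DESeq2 without a block (adjusted p = 0.00278) and in edgeR without the library labelled siNC_Ctrl_12h A_1 (0.00761). A set of zinc finger genes was lower: Zfp984 by 1.24 (adjusted p = 0.0229), and Zfp991, Znf41-ps, Zfp982 and Zfp992 by 1.41, 1.18, 1.03 and 1.01, which passed under the block. Zfp991, Znf41-ps and Zfp992 also passed in DESeq2 without a block (adjusted p = 0.00198, 0.0321 and 0.00204). Zfp991 and Zfp992 passed in edgeR without the library labelled siNC_Ctrl_12h A_1 (adjusted p = 0.00411 and 0.0201). These zinc finger genes belong to families of near-identical copies between which estimated counts can be split, so they are uncertain one by one.

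Ryk, Capn10 and Sspn also differed between siNTS with hCG and the control. Ryk was higher by 0.66 (adjusted p = 0.000140), Capn10 lower by 0.98 (adjusted p = 0.000263) and Sspn lower by 1.79 (adjusted p = 8.22e-05). With siNC and hCG against the same controls, Ryk changed by -0.10, Capn10 by 0.38 and Sspn by -0.52, and none of these 3 passed the test. Dnajc16 stood at 30.5, 50.3, 42.9 and 56.0 CPM in the controls and at 27.1, 34.0, 30.8 and 35.6 CPM with siNTS and hCG (-0.49, adjusted p = 0.0228), a call that was lost without label A_2, B_2 or B_3 and without the 3 libraries of highest ribosomal share.

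Markers of other cells of the ovary were read beside these results. Summed endothelial markers (10 genes) stood at 5.10 to 5.36 CPM in the controls and 3.57 to 11.2 CPM with siNTS and hCG, mostly Cdh5; Cldn5, at up to 0.282 CPM, rose and Tek, at up to 0.279 CPM, fell, the second call being lost whichever label was left out. Immune markers (14 genes) stood at 5.99 to 10.9 CPM and 11.1 to 14.5 CPM; Csf1r, a macrophage receptor, rose from 1.17 to 1.61 CPM to 3.41 to 5.88 CPM (log2 fold change 1.69, adjusted p = 5.87e-05), while the other 10 of the 11 tested did not pass, the median over the list was -0.0336, and Cd3e and S100a8 were at 0 in all 8 libraries. Theca and interstitial markers (9 genes) stood at 1330 to 2020 CPM and 840 to 1290 CPM, mostly Aldh1a1, which fell by 1.32 (adjusted p = 0.000378). Of the 7 tested 1 rose and 3 fell, with 1 lower without label A_2 or label B_2, and the list holds Lhcgr, which rose; Insl3, a defining theca marker, stood at 0 to 0.123 CPM.

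Fibroblast markers stood at 16.3 to 33.6 CPM and 12.0 to 25.3 CPM, smooth muscle and pericyte markers at 64.1 to 135 CPM and 49.3 to 87.4 CPM, surface epithelium markers at 102 to 127 CPM and 87.1 to 168 CPM, and oocyte markers at 1.57 to 16.0 CPM and 1.66 to 18.1 CPM, with 0 genes of these 4 lists called in edgeR (1 lower at an unadjusted p under 0.05, a fibroblast marker). With replicate labels as a block, 1 fibroblast marker and 2 smooth muscle and pericyte markers were lower. With siNC and hCG against the same controls, 2 smooth muscle and pericyte markers were lower without the block. Erythrocyte markers ranged from 113 to 1500 CPM and from 175 to 857 CPM. Granulosa genes of the preovulatory follicle summed to 8020 to 10500 CPM and to 5540 to 6560 CPM, and luteal genes to 2310 to 2620 CPM and to 6300 to 10100 CPM. Their part in the results above was not tested.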

How the data were processed

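RNA was measured by sequencing of stranded mRNA libraries from pooled mouse granulosa cells. Per the submitters' processing notes, which name tools without roles, the authors worked on build GRCm39 with edgeR, limma, Salmon (1.4.0) and R (4.1.0). The deposited table holds estimated counts per gene for 24 libraries, which were rounded to whole numbers. The authors' deposited tables of their own comparisons give log2 fold changes and adjusted p-values, and their calls at 12 h are quoted as such.

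Of 39253 genes, 15405 passed edgeR's filterByExpr, and they held 99.97% of the counts. All 24 libraries were fitted with a mean per group (edgeR 4.0.16 quasi-likelihood test, TMM scaling, R 4.3.3), with Benjamini-Hochberg adjustment over all genes tested and a threshold of 0.05. No block was used in this main fit, since none was stated in the sources used here. Fits that left out labels or libraries had no block either. SEs are derived from the fit, and intervals cover 95%. Libraries held 26.2 M to 45.4 M counts (M, mega). Data were simulated for siNTS with hCG against the control, over 15405 genes with 50 changed at each fold. On them the test recovered 20% of 1.5-fold, 54% of 2-fold, 90% of 4-fold and 100% of 8-fold changes, with 2 false calls. The simulated libraries were independent of each other, and far fewer genes were changed than the 3035 called here. These shares therefore describe the simulation and not the real comparison.

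Replicate labels pair libraries across groups because the titles give each label a shared date. Deviations from the group means of siNTS with hCG and of the control had correlations of -0.637, 0.347, -0.242 and 0.613 over 10798 genes for A_1, A_2, B_2 and B_3, and those of siNTS and siNC with hCG 0.957, 0.819, 0.463 and 0.492. The fit with the label as a block is therefore given where it changes a call or moves a count by more than 1.5-fold.

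Genes named are Nts, up to 10 each way with the largest change (adjusted p under 0.05, the same direction under all 4 labels, at least 5 CPM in the higher group), up to 8 each way for siNTS against siNC with hCG under the block, and from each list up to 4 that passed and 2 that did not. Where genes were ranked by the size of the change, symbols of predicted genes (Gm plus digits, LOC or ending in Rik) were left out. Of 138 genes given values, 112 came from these rules and 26 were chosen after their values were seen. Some members of the sterol lists are not reported here by name. The groups, lists and rules were chosen with earlier results of these data known. Promoters were read from a RefSeq table of build GRCm38.p6, and no coordinates of GRCm39 are given. Alternatives were DESeq2 1.42.0, limma-voom (limma 3.58.1), other scalings, filters, blocks and sample sets.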

Additional observations from a re-analysis of the deposited data

Results flagged for a closer look

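Each of the 138 named genes was examined in the control and the siNTS libraries with hCG for a library far from the other 3 of its group, by Dixon's criterion. In 21 of 276 groups (7.61%) a library stood apart. The criterion marks about 1 in 20 groups by chance, but 26 of the genes were named after their values were seen, so the share cannot be read against that. In the library labelled siNC_Ctrl_12h A_1, Capn10 (14.2 CPM), Zfp991 (15.4 CPM) and Cyp19a1 (1.32 CPM) were low, and Rbm18 (39.5 CPM), Wnt4 (43.5 CPM) and Pfkfb4 (15.2 CPM) high. In control B_3, Edn2 (0.422 CPM), Thbs1 (2110 CPM), Adm (7.91 CPM) and Slc2a1 (85.4 CPM) were high. Id2 was low in control A_2 (88 CPM), and Angpt2 (81.1 CPM) and Per3 (7.83 CPM) were low in control B_2.

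With siNTS and hCG, library B_3 was high for Nts (2.73 CPM), Adm (37 CPM), Slc2a1 (408 CPM), Ddit4 (388 CPM) and Ier3 (277 CPM) and low for Wnt5a (33.9 CPM). Library A_2 was high for Apela (7.06 CPM) and Sfrp4 (1100 CPM).

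For 29 named genes the change with siNTS and hCG against the control differed between 12 h and 4 h (edgeR, test of the difference, adjusted p under 0.05). Over all genes tested the difference was positive for 2.77% and negative for 1.23%. Many of the named genes were chosen by their change at 12 h, which is part of this difference. Their number can therefore not be read against these shares. On the log2 scale the change at 12 h minus that at 4 h was 3.84 for Edn2, 3.53 for Ramp1, 3.39 for Apln, 3.38 for Ptgfr, 2.89 for Slc16a11, 2.86 for Apela, 2.86 for Asgr1, 2.35 for Lhcgr and 2.26 for Npas2. It was 2.16 for Ptgs1, 2.08 for Wnt4, 1.99 for Rora, 1.83 for Cyp11a1, 1.72 for Cxcr4, 1.68 for Oxtr, 1.55 for Dhcr7, 1.37 for Fdx1, 1.36 for Timp1, 1.07 for Fshr and 1.05 for Soat1. Smaller positive differences were found for Rrm2 (0.877), Tmem143 (0.835) and Id2 (0.817). It was negative for Neb (-3.24), Npr3 (-2.8), Pcsk2 (-1.59), Thbs1 (-0.996), Nr1d2 (-0.668) and Etv5 (-0.546).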

How the results depend on the processing

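No named result changed direction while called. Of 111 named genes called for siNTS with hCG against the control, 73 were called under every alternative, and of 6 called against siNC with hCG, 0 were. The alternatives that left out labels or libraries had no block and so did not use the pairing by label. Counts below are higher then lower. With replicate labels as a block, siNTS with hCG against the control gave 2463 and 2561, siNC with hCG against the control 2022 and 2142, siNTS against siNC with hCG 28 and 63, and the 12 h minus 4 h difference 1363 and 782; the block ended no named call and added 11 against the control. With the title date as a block these were 2302 lower for the first, 22 and 53 for the third and 1091 and 631 for the fourth. Fitting only the groups compared gave 0 and 1 for the third (454 at an unadjusted p under 0.05) and 231 and 100 for the fourth; with the block as well, 722 and 706, 825 and 810, 33 and 96, and 381 lower for the fourth. Testing for a change above 1.5-fold gave 454 and 366, 461 and 336, 0 and 0 (99 at an unadjusted p under 0.05) and 63 and 23. Without a filter on low counts the third gave 4 and 10 and the fourth 223 and 122; with a mean of at least 1 CPM the third gave 11 higher. DESeq2 gave 22 and 39 for the third and 429 lower for the fourth. Alternatives added after the data were seen left out libraries of the 12 h groups only. Without the 3 of highest ribosomal share at 12 h the third gave 0 and 0 and the fourth 255 and 124. The 4 h side of the fourth kept all its libraries. Without the library labelled siNC_Ctrl_12h A_1 the third gave 12 and 32. Leaving out each label in turn gave 794 to 1442 and 773 to 1308, 692 to 1166 and 585 to 1129, 0 to 12 and 0 to 28, and 47 to 223 and 17 to 149. The causes were not tested. In the simulated data 20% of 1.5-fold changes were recovered, and what was missed in the real data was not measured.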
